A study of Mus musculus with 6 samples.

Results

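The miR-29 family is described here across 6 cultures of mouse macrophages grown from bone marrow, which lacked ApoE (EKO) or carried it (wild type, WT). Its members were the 5 mature miRNAs mmu-miR-29a-3p, mmu-miR-29a-5p, mmu-miR-29b-3p, mmu-miR-29c-3p and mmu-miR-29c-5p, found by exact name among the 911 mature miRNA references of the series. All 5 had reads and all 5 passed the filter on low counts. The species prefix is left out below. The 5p arms of the miR-29b precursors, miR-29b-1-5p and miR-29b-2-5p, are not counted as members, and their values stand beside those of their loci.

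Small RNA was sequenced from 3 EKO and 3 WT cultures, stated to be biological replicates, to ask which miRNAs differ with ApoE deficiency. Macrophages secrete apolipoprotein E, which carries lipids between cells and into lipoproteins. Both groups came from male mice 6 to 12 weeks old, and both were differentiated in serum-containing medium with macrophage colony-stimulating factor, 25 ng/mL every 2 days over 6 days. The groups differed by genotype alone as far as the labels state, which give neither the strain background nor the knockout allele. The tables hold no mRNA, so Apoe itself does not check the genotype here.

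A microRNA guides the Argonaute protein to mRNAs that pair with its seed, bases 2 to 8 from its 5′ end, and thereby lowers their translation and stability. Each hairpin precursor gives a 5p and a 3p arm, of which 1 is usually loaded and the other mostly degraded. The 3p arms of miR-29 are the guide strands. They are best known for repressing collagens, elastin and other matrix transcripts, the de novo DNA methyltransferases Dnmt3a and Dnmt3b, and the survival factor Mcl1. In lymphocytes they also act on the interferon-gamma pathway, and in macrophages and dendritic cells lipoprotein lipase is a described target.

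The mature sequences are shown because the 3 guide strands share a seed and differ by few bases, which sets both what they can target and how well their reads can be told apart. They are RefSeq sequences of the GRCm38.p6 table, matched by name for all 5 members, written 5′ to 3′ with the seed in capitals.
miR-29a-3p: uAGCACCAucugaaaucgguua
miR-29b-3p: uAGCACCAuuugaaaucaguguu
miR-29c-3p: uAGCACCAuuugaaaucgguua
miR-29a-5p: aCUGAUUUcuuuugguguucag
miR-29c-5p: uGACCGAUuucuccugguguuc
Among the 1679 mature sequences of that table, the seed AGCACCA belonged to these 3 guide strands and to no other. Counted from the 5′ end, miR-29c-3p differs from miR-29a-3p by C10U alone. From miR-29a-3p to miR-29b-3p the changes are C10U, G18A, U21G and A22U over 22 aligned bases. The first 17 bases of miR-29b-3p and miR-29c-3p are identical, so a read trimmed to that length fits both. The seeds of miR-29a-5p and miR-29c-5p were each found in no other mature sequence of the table.

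The family comes from a pair of loci on different chromosomes (coordinates in GRCm38.p6; the deposited counts carry none). The Mir29a hairpin, chr6:31062660-31062747 on the minus strand, lies 275 bases from Mir29b-1, chr6:31063023-31063093 on the same strand. In GENCODE M21 the 5′ end of the Mir29b-1 hairpin overlaps the 3′ end of the long intergenic non-coding RNA Gm27019, on the same strand. On the plus strand of chromosome 1, Mir29b-2, chr1:195037040-195037120, lies 426 bases before Mir29c, chr1:195037547-195037634. Both chromosome 1 hairpins lie inside an exon of the non-coding transcript A330023F24Rik and, on the opposite strand, inside an exon of Cd46, which encodes a complement regulator. Mature miR-29b-3p is identical from Mir29b-1 and Mir29b-2, so its reads cannot be assigned to a locus, whereas the other arms each belong to 1 hairpin.

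Over the series, libraries held 34651511 to 41331604 reads on mature miRNAs, with 543 to 591 detected miRNAs in EKO and 664 to 698 in WT. Levels are given as CPM (counts per 1e+06 mature miRNA reads of the same library). Ligation and PCR favour some sequences, so the CPM of a miRNA can be compared only roughly with that of another miRNA. Comparing a miRNA between libraries takes that preference to be equal in each. A trend with GC content that differed between the libraries is given below. In a bulk culture, fewer cells of a type and less RNA per cell cannot be told apart. Without molecular barcodes, counting limits cover counting error only. All 10 listed macrophage and myeloid miRNAs had reads in at least 1 library. Detection alone does not check the macrophage label, since all listed lymphoid, epithelial, and endothelial and megakaryocyte miRNAs also had reads. The least abundant of the 10, miR-511-3p of the macrophage gene Mrc1, was at 0, 0 and 0.674 CPM in EKO and at 0.442, 0.532 and 1.37 CPM in WT. The other arm of that hairpin, miR-511-5p, reached 1.62, 0.0759 and 0.378 CPM in EKO libraries and 4.53, 6.73 and 6.04 CPM in WT, lower in EKO without overlap. The myeloid miR-223-5p went the other way without overlap, at 2673 to 2880 CPM in EKO and 1959 to 2162 CPM in WT. Its other arm, miR-223-3p, was lower in EKO without overlap, at 227 to 281 CPM against 345 to 520 CPM in WT. So were miR-142a-5p, miR-155-5p and miR-21a-5p. Of all 575 tested miRNAs, 17.7% were lower and 11.8% higher in EKO without overlap. By value, 2 of the 10 were higher and 8 lower in EKO, with a median log2 fold change of -0.56. The 10 summed to 143180 to 171457 CPM in EKO and 215991 to 228801 CPM in WT, nearly all of it miR-21a-5p.

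miR-29a-3p, the main guide strand of the family, was the most abundant member in every library and had lower values in EKO. It stood at 390, 415 and 495 CPM in the EKO libraries and at 518, 583 and 652 CPM in the WT libraries. The groups did not overlap, although the highest EKO value came close to the lowest WT value. The mean was 434 ± 54.8 CPM in EKO and 584 ± 67.0 CPM in WT (SD, n = 3 per genotype). Its log2 fold change, EKO over WT, was -0.40 ± 0.13 (SE) and did not pass the test over all miRNAs (adjusted p = 0.122, edgeR quasi-likelihood test with Benjamini-Hochberg adjustment; unadjusted p = 0.0161 in the same fit).

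No miRNA of the 575 tested passed an adjusted p of 0.05 in that fit (0% called), where an unadjusted p under 0.05 held for 48 higher and 75 lower (8.35% and 13% of those tested). By other tools, DESeq2 called 43 higher and 49 lower, and limma-voom 9 and 23, none of them a member of the family. Of the 5 members, 1 had an unadjusted p under 0.05 and that same 1 had groups that did not overlap, lower in EKO. Among all tested miRNAs 17.7% did not overlap and were lower in EKO, and 11.8% did not overlap and were higher, so 1 of 5 is near the background. The median log2 fold change of the 5 members was -0.40, against -0.16 over all tested miRNAs, with 2 members higher and 3 lower in EKO by value.

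**Figure D1:**
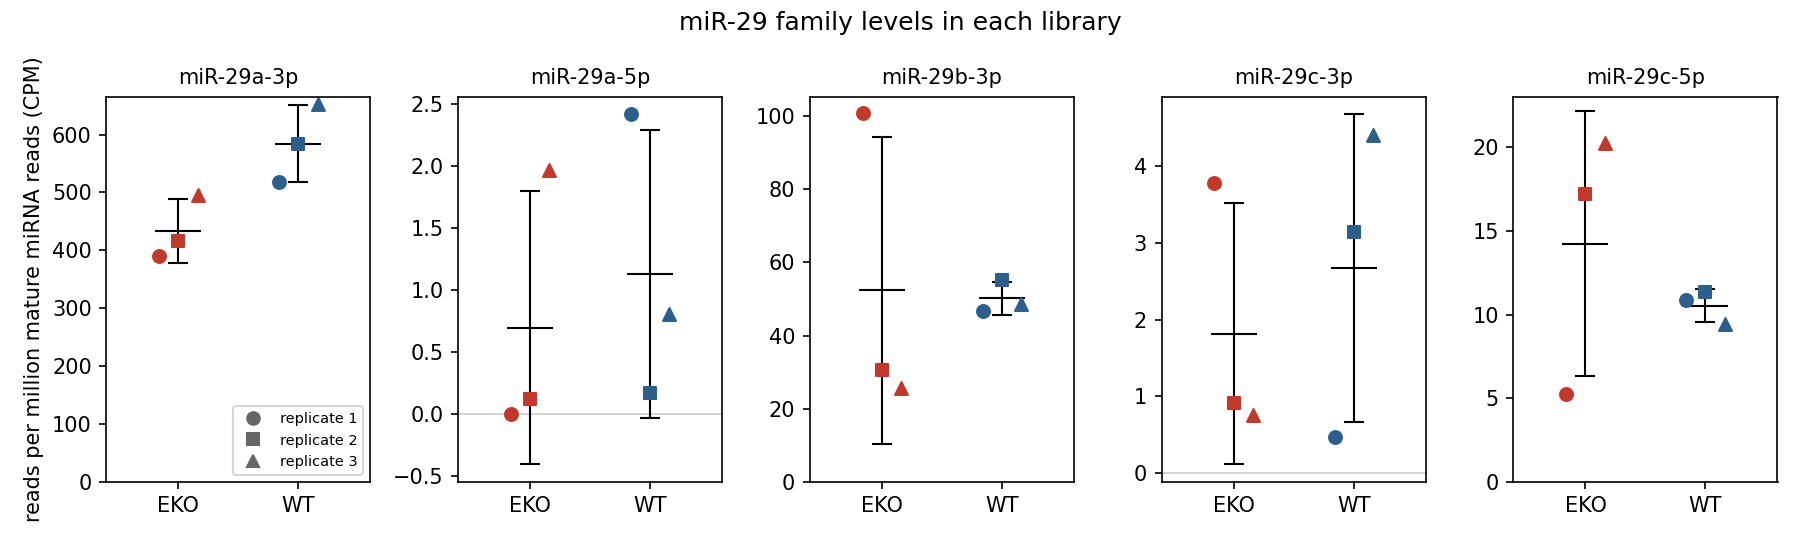
Level of each family member (CPM, linear axis per panel) in the 3 EKO and 3 WT libraries. Points are libraries, with shapes for replicates 1 to 3, and bars are mean ± SD; miR-29a-3p is the member whose groups do not overlap, and EKO replicate 1 stands at 101 CPM for miR-29b-3p.

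The lower value of miR-29a-3p moved with a trend of read counts with GC content that differed between the libraries. In each library, the deviation of log2 CPM from a miRNA's mean was regressed on the GC content of its mature sequence, over miRNAs averaging at least 10 CPM. Per 10 percentage points of GC, the slope was 0.14, 0.13 and 0.02 log2 units in EKO replicates 1 to 3, and -0.05, -0.09 and -0.12 in WT replicates 1 to 3. The 6 libraries rank in exactly opposite order by this slope and by miR-29a-3p, from EKO replicate 1 to WT replicate 3. The mean was taken over the same 6 libraries, so each slope and its sign are relative to the other libraries. Since every EKO slope lay above every WT slope, genotype and GC trend cannot be told apart between the groups.

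miR-29a-3p has a GC content of 40.9%. With the trend removed as an offset, its log2 fold change was -0.07 ± 0.13 (adjusted p = 0.724, edgeR), against -0.37 ± 0.14 (adjusted p = 0.0800) among the same 251 miRNAs without the correction. In that uncorrected fit the median log2 fold change was -0.44 for the 34 miRNAs with a GC content under 40% and -0.21 for the 78 from 40% to under 50%. It was 0.09 for the 70 miRNAs from 50% to under 60% and 0.07 for the 39 at 60% or more. A total of 221 of the 251 miRNAs (88.0%) had a sequence in the table. That fit called 59 of the 251 (23.5%), and of the 3 members averaging at least 10 CPM it called none.

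**Figure D2:**
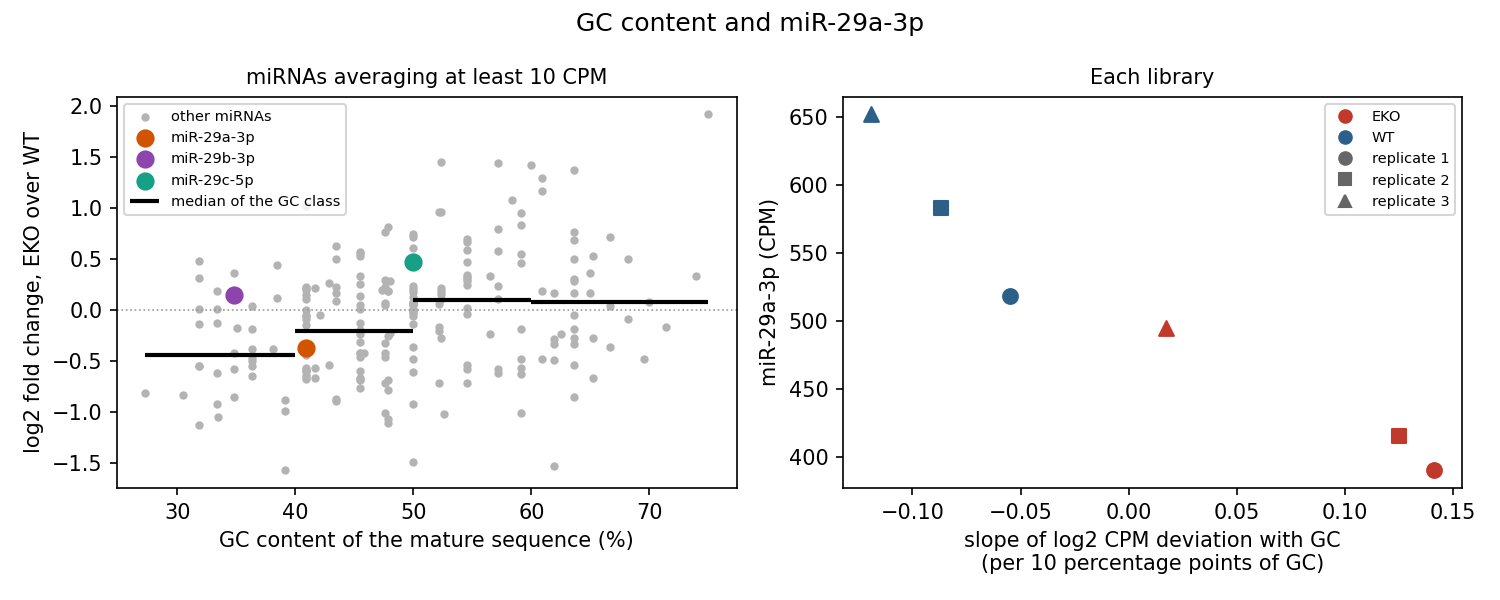
Left, log2 fold change (EKO over WT) of miRNAs averaging at least 10 CPM against the GC content of the mature sequence (%), with the 3 family members of that level marked and the median of each GC class as a black line. Right, miR-29a-3p level (CPM) against the GC slope of each library (log2 units per 10 percentage points); the 3 EKO libraries sit at positive slopes and lower levels than the 3 WT libraries.

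The second guide strand, miR-29b-3p, had 1 library far above the rest. It stood at 101, 30.6 and 25.7 CPM in EKO and at 46.7, 55.2 and 48.6 CPM in WT. EKO replicate 1 was the highest of all 6 libraries, and the other 2 EKO libraries were lower than any WT library. The means were 52.4 ± 42.0 CPM in EKO and 50.2 ± 4.46 CPM in WT (SD, n = 3 per genotype), and the log2 fold change was 0.12 ± 0.52 (adjusted p = 0.963, edgeR). Without EKO replicate 1 it was -0.84 ± 0.25 (adjusted p = 0.165, edgeR), so its direction rests on that library. With the GC trend removed it was 0.66 ± 0.52 (adjusted p = 0.389, edgeR).

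In EKO replicate 1, miR-29b-3p had 71.4 reads per distinct read sequence (3500 reads over 49 sequences), against 27.3 to 29.6 in the other EKO libraries and 30.0 to 40.8 in WT. For miR-29a-3p that figure was 87.8 to 103 in EKO and 85.1 to 107 in WT. The figure depends on the read count itself, since the other libraries had 955 to 2284 reads of miR-29b-3p over 35 to 65 sequences. Without barcodes, the part that copying of few captured molecules had in the high value of miR-29b-3p was not tested. Over all tested miRNAs, EKO replicate 1 was the highest library for 18.8%, and WT replicate 3 for 26.6%.

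Neither locus-specific arm of the miR-29b precursors had its highest value of the series in EKO replicate 1. Within EKO, miR-29b-1-5p was highest in that library, and miR-29b-2-5p was lowest there. From the chromosome 6 hairpin, miR-29b-1-5p reached 6.75, 2.81 and 3.99 CPM in EKO libraries and 8.95, 3.97 and 8.68 CPM in WT. The chromosome 1 arm miR-29b-2-5p reached 1.88, 5.57 and 2.29 CPM in EKO libraries and 0.937, 2.27 and 1.03 CPM in WT. Both sets overlap between the genotypes, with log2 fold changes of -0.61 ± 0.64 and 1.20 ± 1.00 (adjusted p = 0.749 and 0.640, edgeR). For miR-29b-1-5p the fold change ran from -1.07 without EKO replicate 1 to -0.34 without EKO replicate 2. For miR-29b-2-5p it ran from 0.59 without EKO replicate 2 to 1.80 without WT replicate 2. Reads of miR-29b-1-5p were 3.58, 0.506 and 1.74 times those of miR-29b-2-5p in EKO, and 9.44, 1.74 and 8.36 times in WT. The chromosome 6 arm thus gave more reads in every library but EKO replicate 2.

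The third guide strand, miR-29c-3p, was near the lower end of detection. It stood at 3.78, 0.911 and 0.755 CPM in EKO and at 0.468, 3.15 and 4.40 CPM in WT, from 18 to 180 reads a library. Its values overlapped, and replicate 1 was out of step with replicates 2 and 3 in both genotypes, high in EKO and low in WT. The log2 fold change was -0.48 ± 1.21 (adjusted p = 0.928, edgeR). The authors' counting divided reads that also matched another reference, which took between 0.276% and 11.3% off its total read count. The share of such reads is larger than this loss, since a divided read still counts in part. For miR-29a-3p the loss was at most 0.00370% and for miR-29b-3p at most 0.330%. The loss covers only reads that matched several references. Wrong assignment of a read to a single reference does not show in it and was not tested.

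The opposite arm miR-29c-5p, often treated as the passenger strand, was more abundant than the guide in all 6 libraries. It stood at 5.25, 17.2 and 20.3 CPM in EKO and at 10.8, 11.3 and 9.43 CPM in WT. EKO replicate 1 was the lowest of all 6 libraries and the other 2 EKO libraries the highest. The means were 14.2 ± 7.94 CPM in EKO and 10.5 ± 0.982 CPM in WT (SD, n = 3 per genotype), with a log2 fold change of 0.43 ± 0.50 (adjusted p = 0.773, edgeR). Without EKO replicate 1 it was 0.82 ± 0.34 (adjusted p = 0.278, edgeR). EKO replicate 1 thus held the highest miR-29b-3p and the lowest miR-29c-5p of the series.

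miR-29a-5p, the passenger of the most abundant member, was barely detected. It had 0, 5 and 73 reads in EKO (0, 0.126 and 1.97 CPM) and 93, 7 and 33 reads in WT (2.42, 0.169 and 0.807 CPM). The count of 0 in EKO replicate 1 allows up to 0.0866 CPM, the level of 3 reads. Its groups overlapped, with a log2 fold change of -0.70 ± 1.99 (adjusted p = 0.933, edgeR). Reads in each library came from at most 8 distinct sequences.

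The 2 precursors with both arms counted differed in which arm gave more reads. Reads of miR-29a-3p were 27045, 2986 and 249.8 times those of miR-29a-5p in EKO and 213, 3213 and 796 times in WT, where 0.5 reads were added to each count and the first value rests on a passenger count of 0. For miR-29c the order was turned round. The reads of miR-29c-5p were 1.39, 18.6 and 26.4 times those of miR-29c-3p in EKO and 22.6, 3.59 and 2.14 times in WT. Arm ratios within a library are not affected by its scaling, but they carry the ligation preference for each sequence. They were not corrected for the GC trend above, which can shift a ratio between arms of unlike GC content. That content is 36.4% for miR-29c-3p and 50% for miR-29c-5p.

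These ratios did not separate the genotypes. The log2 ratio of miR-29c-3p over miR-29c-5p was -3.14 ± 2.32 in EKO and -2.48 ± 1.79 in WT (SD, n = 3 per genotype; two-sided exact permutation p = 0.9). That of miR-29a-3p over miR-29a-5p was 11.4 ± 3.38 in EKO and 9.67 ± 1.96 in WT (exact permutation p = 0.5). Between guide strands, miR-29b-3p over miR-29a-3p had a log2 ratio of -3.33 ± 1.22 in EKO and -3.54 ± 0.183 in WT (exact permutation p = 1). The ratio of miR-29c-3p to miR-29a-3p was -8.28 ± 1.40 in EKO and -8.27 ± 1.57 in WT on the same scale (exact permutation p = 1), and that of miR-29c-3p to miR-29b-3p -4.95 ± 0.188 and -4.73 ± 1.66 (exact permutation p = 0.9). With 3 against 3 the test cannot go below 0.1, and all 5 ratios had an adjusted p of 1.

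**Figure D3:**
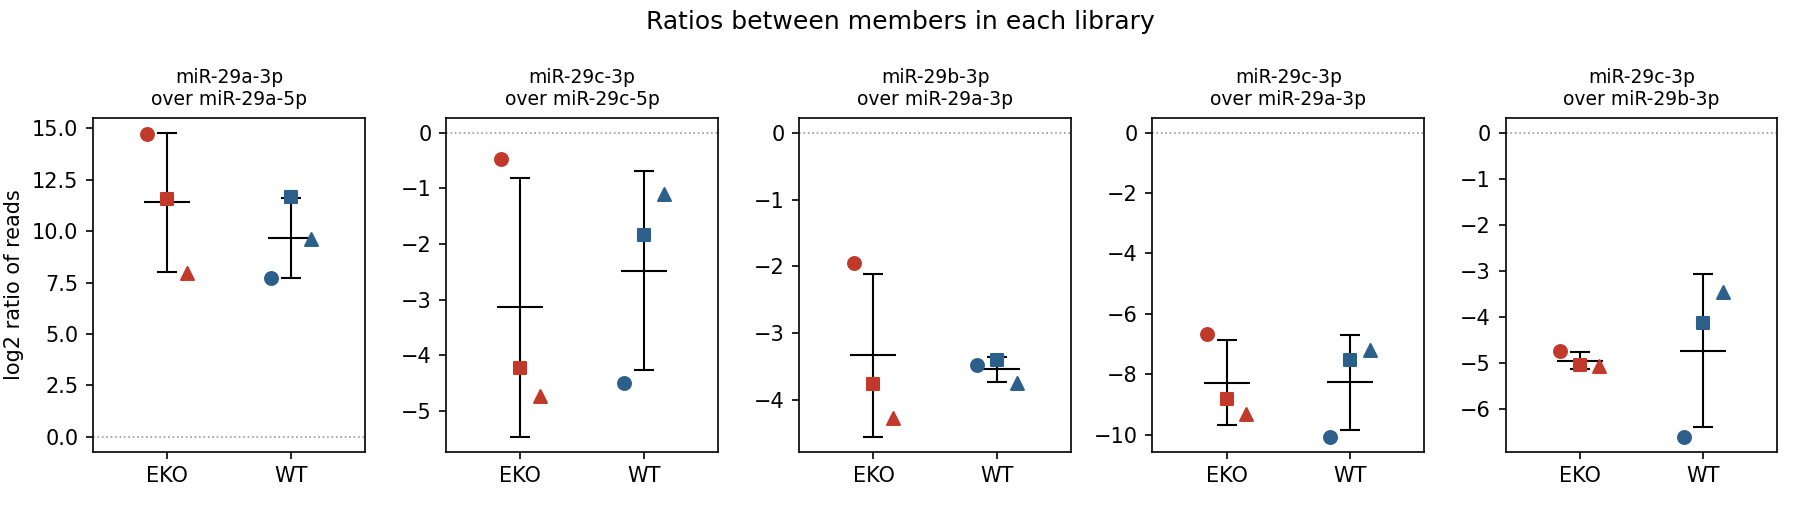
Log2 ratio of reads between members in each library (0.5 reads added), EKO left of WT, with replicate shapes and mean ± SD; the dotted line marks equal reads. The arms of miR-29a lie above the line and those of miR-29c below it in all 6 libraries, and the groups overlap in all 5 panels.

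Summed over the 5 members, the family reached 500.1, 464 and 544 CPM in EKO and 579, 653 and 715 CPM in WT, with no overlap. The sum follows miR-29a-3p, which made up 78.0%, 89.5% and 91.0% of it in EKO and 89.5%, 89.3% and 91.2% in WT. The share of miR-29b-3p was 20.2%, 6.58% and 4.73% in EKO and 8.08%, 8.46% and 6.79% in WT, so EKO replicate 1 had the most unlike make-up. All 5 members had a larger coefficient of variation in EKO, for example 80.3% against 8.88% in WT for miR-29b-3p and 55.7% against 9.32% for miR-29c-5p. The same held for 72.7% of all tested miRNAs with reads in both groups.

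**Figure D4:**
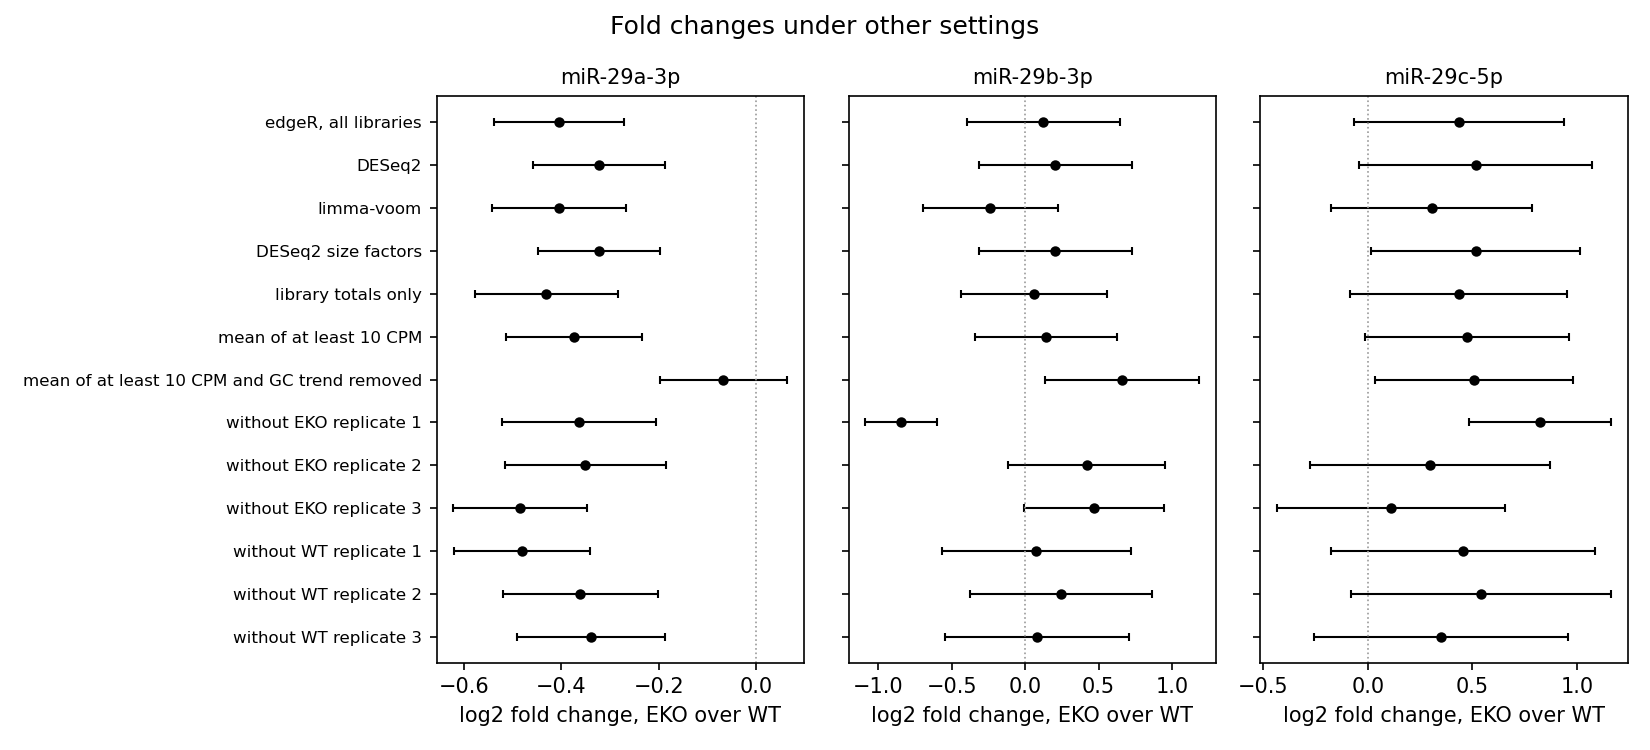
Log2 fold change (EKO over WT, points) ± SE (bars) of the 3 members averaging at least 10 CPM under other tests, scalings and filters and without each library. miR-29a-3p stays below 0 and is nearest to it with the GC trend removed, and miR-29b-3p turns to -0.84 without EKO replicate 1.

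The miRNAs with the pattern most like that of miR-29a-3p were sought by Pearson correlation of log2(CPM + 0.5) over the 6 libraries, among 248 other miRNAs averaging at least 10 CPM. They were miR-340-5p (r = 0.99), miR-140-5p (0.98), miR-26b-5p (0.98), miR-22-3p (0.98) and the joint entry of let-7a-1-3p and let-7c-2-3p (0.98). miR-340-5p, with a GC content of 27.3%, stood at 827, 967 and 1400.3 CPM in EKO and at 1683, 1744 and 2413 CPM in WT. Like miR-140-5p and miR-26b-5p, it gave the 6 libraries the same order as miR-29a-3p, whereas miR-22-3p and the let-7 joint entry did not. The GC content was 33.3% for miR-26b-5p, 36.4% for the let-7 joint entry and 45.5% for miR-22-3p. For miR-140-5p no sequence was matched, so its GC content is not given. For miR-29b-3p the closest were the joint entry of miR-1843a-5p and miR-1843b-5p (r = 0.87), miR-296-3p (0.84) and miR-28a-3p (0.83). With total read counts, where a read matching several references counts whole for each, the joint entry came after the other two (r = 0.76, against 0.84 and 0.83). For miR-29c-3p they were miR-296-3p (r = 0.78), let-7b-3p (0.74) and miR-450a-5p (0.71). These values are descriptions over libraries that share 2 genotypes and the GC trend above. Family members were left out of the search.

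Other miRNAs known to act on the processes that miR-29 regulates were described in the same fit. Of 12 miRNAs reported to target DNA methyltransferases or the Tet demethylation enzymes, all 12 were tested and none passed in either direction. By value, 1 was higher and 11 lower in EKO, with a median log2 fold change of -0.29 against -0.16 over all. The smallest p-values belonged to miR-148a-3p, which targets Dnmt1, miR-26b-5p, whose family targets the Tet transcripts, and miR-143-3p, which targets Dnmt3a. They had log2 fold changes of 0.98 ± 0.23, -0.95 ± 0.22 and -1.04 ± 0.24 (adjusted p = 0.0766, 0.0766 and 0.0777, edgeR).

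Of 18 miRNAs tied to extracellular matrix and fibrosis, 16 were tested and none passed, with 4 higher and 12 lower by value and a median of -0.43. Those with the smallest p were miR-19b-3p and miR-30c-5p, both described as restraining connective tissue growth factor, and the profibrotic miR-21a-5p. In the order miR-19b-3p, miR-21a-5p and miR-30c-5p they stood at log2 fold changes of -1.61 ± 0.26, -0.50 ± 0.09 and -0.92 ± 0.20 (adjusted p = 0.0766 each, edgeR). Like that of miR-29a-3p, the fold change of miR-21a-5p was near 0 with the GC trend removed, at -0.07 (adjusted p = 0.780, edgeR), against -0.47 (adjusted p = 0.0228) among the same 251 miRNAs without the correction. Of 13 miRNAs tied to lipoprotein lipase, cholesterol and lipid handling, 12 were tested and none passed, with 3 higher and 9 lower by value and a median of -0.40. Its miR-122-5p, abundant in hepatocytes, stood at 119 ± 30.0 CPM in EKO and 51.8 ± 6.17 CPM in WT (SD, n = 3 per genotype; log2 fold change 1.24 ± 0.25, adjusted p = 0.0766, edgeR). After it came miR-30c-5p and miR-148a-3p, given above.

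miRNAs of other cells that a marrow culture could hold were summed per library. Stromal fibroblasts, in which miR-29 restrains collagen production, had 8 listed miRNAs, which summed to 3859 to 4077 CPM in EKO and 4005 to 4140 CPM in WT. The sum was carried by miR-140-3p. The listed miR-145a-5p was at 0 in all 3 EKO libraries and in 2 of the 3 WT libraries, and miR-214-3p was between 0 and 2.51 CPM. The joint entry of miR-199a-3p and miR-199b-3p reached 0.0577, 3.77 and 2.16 CPM in EKO libraries and 7.70, 9.10 and 14.2 CPM in WT, lower in EKO without overlap. The same held for miR-143-3p at 73.8 to 115 CPM in EKO and 165 to 211 CPM in WT, miR-199a-5p at 0 to 1.56 CPM in EKO and 3.32 to 4.19 CPM in WT, and miR-140-5p at 138 to 243 CPM in EKO and 275 to 404 CPM in WT. Of the 6 stromal entries tested, 2 were higher and 4 lower by value, with a median log2 fold change of -0.95. Over all tested miRNAs, 17.7% were lower and 11.8% higher in EKO without overlap. Lymphoid miRNAs summed to 537 to 649 CPM in EKO and 728 to 846 CPM in WT, also without overlap. That sum was mostly miR-181a-5p, whose groups overlapped, and miR-181b-5p, lower in EKO without overlap. The defining miR-150-5p overlapped, at 2.60 to 5.42 CPM in EKO and 4.60 to 5.96 CPM in WT. Erythroid, epithelial, and endothelial and megakaryocyte lists summed to 117 to 145, 116 to 183 and 16084 to 21259 CPM in EKO and to 127 to 160, 147 to 159 and 11202 to 13940 CPM in WT. The erythroid sum was nearly all miR-486a-5p and miR-486b-5p, counted jointly, whereas the erythroid-defining miR-451a reached 5.92, 5.31 and 1.29 CPM in EKO libraries and 0, 0 and 0.587 CPM in WT, higher in EKO without overlap. The endothelial and megakaryocyte sum was nearly all miR-10a-5p, at 15849 to 21065 CPM in EKO and 10855 to 13644 CPM in WT. The endothelial miR-126a-3p, at 64.6 to 73.1 CPM in EKO and 76.3 to 79.5 CPM in WT, and miR-125b-5p, at 129 to 168 CPM in EKO and 219 to 270.0 CPM in WT, were lower in EKO without overlap. The part of other cell types in the miR-29a-3p level was not tested.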

How the data were processed

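Total RNA of 3 EKO and 3 WT macrophage cultures was purified on RNeasy Mini columns, which can lose small RNA, and sequenced after an NEB small RNA preparation, per the labels' protocols. The submitters' processing notes name genome build mm9; the aligner and the counter are not given there or in the labels. Per the file headers, the authors deposited for each reference 3 columns used here: the count of distinct sequences, the total count of reads, and an estimated count that splits a read between all references it matches. Barcode counts were 0 throughout. The estimated counts as deposited were rounded to whole numbers, stem-loop references (at most 0.00161% of reads; none of miR-29) were left out and a missing reference was taken as 0. CPM used each library's total of mature miRNA reads.

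Genotypes were compared with edgeR 4.0.16 in R 4.3.3 (TMM, filterByExpr, quasi-likelihood test on genotype, Benjamini-Hochberg over all tested miRNAs, threshold 0.05), checked on simulated counts; a standard error is the log2 fold change divided by the square root of F. The 5 ratios between members used two-sided exact permutation tests with 0.5 reads added. Alternatives were DESeq2 1.42.0, limma-voom (limma 3.58.1), other scalings and filters, total read counts, removal of a loess trend with the GC content of the mature sequence (miRNAs without a sequence took the median), blocking on replicate number, and omission of each library in turn. miRNAs named beside the members were those of the highest correlation with a guide strand (5 for miR-29a-3p, 3 each for the others) and the 3 of smallest p per process list; others were chosen after their values were seen. The members and lists were chosen with earlier results of these data known.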

Additional observations from a re-analysis of the deposited data

How the results depend on the processing

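No member passed an adjusted p of 0.05 under any of the alternatives run. For miR-29a-3p, the log2 fold change stayed negative in all 17, from -0.48 to -0.07 (adjusted p from 0.0604 with the replicate block to 0.724 with the GC trend removed), and from -0.48 to -0.34 without single libraries. miR-29c-5p stayed positive in all 17, from 0.11 to 0.82. The sign of miR-29b-3p turned to -0.24 with limma-voom and -0.22 with the replicate block; the cause was not tested. Leaving out single libraries gave -0.84 to 0.47 for miR-29b-3p, -4.07 to 0.54 for miR-29a-5p and -1.68 to 0.035 for miR-29c-3p.

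Of the 5 differences in log2 ratio between EKO and WT, 4 changed sign without single libraries. They ran from -1.99 to 0.13 for miR-29c-3p over miR-29c-5p, from -0.48 to 0.68 for miR-29b-3p over miR-29a-3p, from -0.91 to 0.52 for miR-29c-3p over miR-29a-3p, and from -1.15 to 0.42 for miR-29c-3p over miR-29b-3p. The difference for miR-29a-3p over miR-29a-5p, 1.74 with all libraries, kept its sign but ran from 0.080 without EKO replicate 1 to 3.46 without EKO replicate 3. With total read counts the ratio of miR-29c-3p to miR-29a-3p differed by 0.065 in place of -0.01.

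Over all miRNAs, 0 higher and 0 lower calls became 43 and 49 with DESeq2 (11 without an adjusted p), 9 and 23 with limma-voom, 24 and 28 with no low-count filter, 27 and 32 at a mean of at least 10 CPM, 24 and 15 with the GC trend also removed, and 26 and 36 with the replicate block. Leaving out single libraries gave 0 to 16 and 0 to 29. Each of the 7 process-list miRNAs named passed in 6 or 7 of its 16 or 17 alternatives (adjusted p from 5.3e-05 to 0.780), none with a change of sign. With the GC trend removed, against the same 251 miRNAs without the correction, log2 fold changes were -0.07 against -0.47 for miR-21a-5p, -0.48 against -0.93 for miR-26b-5p, -0.65 against -0.89 for miR-30c-5p, -0.88 against -1.01 for miR-143-3p, -1.22 against -1.57 for miR-19b-3p, 1.34 against 1.01 for miR-148a-3p and 1.40 against 1.26 for miR-122-5p. Of these, miR-143-3p and miR-122-5p had no sequence matched by name and took the median GC content. Their corrected values therefore do not reflect the GC content of their own sequences. Replicate numbers were not found to pair EKO with WT libraries (correlations of same-numbered deviations 0.16, -0.11 and 0.14), so the block is a check only. Of the miRNAs and ratios tested, the block changed no other sign or call among the members.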
